A study of Mus musculus with 15 samples.

Results

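The costimulatory receptors and ligands described here are 9 genes, Cd28, Icos, Tnfrsf9, Tnfrsf4, Tnfrsf18, Cd27, Cd40lg, Cd70 and Cd226, that were picked by symbol from 2 tables of mRNA abundance in mouse CD8+ T cells. Rows were found for 8 symbols in each table, that is, for 8 of 11262 mRNA in the first and 8 of 11211 in the second. Cd70, which encodes the ligand of CD27, was not analysed here. All cells carried the LCMV-P14 TCR transgene, which encodes a receptor for a viral glycoprotein peptide. The first table holds naïve cells taken ex vivo, cells activated through the TCR for 24 h with that peptide at 100 ng/ml in medium holding IL-2 at 20 ng/ml and IL-12 at 2 ng/ml (TCR), and cells activated in the same way with 10 µM IC87114 (TCR + PI3Kdi), an inhibitor of the lymphocyte PI3K catalytic subunit p110δ. Each group had 3 replicates. For each replicate number, lymph node cells of 3 mice were mixed and then shared out between the 3 groups. Naïve cells were sorted on TCRβ, CD8, high CD62L and low CD44, and activated cells were sorted as live CD8+ cells. The second table holds cytotoxic T lymphocytes (CTL), the effector cells grown in IL-2 from P14 cells that had been activated for 48 h. They were washed on day 6 and then kept for 24 h in 20 ng/ml IL-2 (CTL IL-2) or without it (CTL no IL-2), again with 3 replicates each. No sort is stated for the CTL, and the number of mice behind a CTL replicate is not given. In the treatment labels, CTL IL-2 replicates 2 and 3 name other interleukins, and the groups were taken from titles. The treatment labels of all 6 CTL libraries carry the mark of replicate 1, while their titles and replicate labels number them 1 to 3. Whether they are separate cultures is thus uncertain, and their p-values measure only the spread between these libraries.

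Costimulatory receptors give a T cell the signal that accompanies recognition of antigen by the TCR. CD28 and ICOS belong to the immunoglobulin family, bind B7 family ligands on antigen presenting cells, and carry a tyrosine motif in the cytoplasmic tail that recruits PI3K. The products of Tnfrsf9 (4-1BB), Tnfrsf4 (OX40), Tnfrsf18 (GITR) and Cd27 belong to the TNF receptor family and signal through TRAF adaptors to NF-κB, while Cd40lg encodes a TNF family ligand best known on helper T cells. CD226 binds CD155 and nectin-2, which are also ligands of the inhibitory receptor TIGIT.

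All values are FPKM, which scales counted fragments by exon length and library size, so that levels of different genes can be set side by side. A difference was called at an adjusted p under 0.05 in a limma fit of log2(FPKM + 0.1) with a change above 2-fold in either direction. Fold changes are on that scale, intervals cover 95%, and the 2 tables were normalised separately, so no test was made between them.

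In the mouse genome (RefSeq, GRCm38.p6, the reference assembly that mm10 represents), Cd28 (Entrez 12487, chr1:60746388-60773359) and Icos (Entrez 54167, chr1:60960773-61000322) lie on the same chromosome with 187 kb between them. Tnfrsf4 (Entrez 22163, chr4:156013595-156016613) and Tnfrsf18 (Entrez 21936, chr4:156026322-156028894) lie 9.71 kb apart, and Tnfrsf9 (Entrez 21942, chr4:150920155-150946104) is on the same chromosome. Cd27 (Entrez 21940) is at chr6:125232620-125237136 and Cd40lg (Entrez 21947) at chrX:57212143-57224042. Tnfrsf4 overlaps Sdf4, Tnfrsf18 overlaps the antisense gene Gm16008, and Cd27 overlaps E130112N10Rik and Mir8113. In the GENCODE annotation, Tnfrsf9 overlaps Camta1 and Cd27 overlaps Vamp1, both on the other strand, and Icos overlaps Gm37039. Whether strand was used in counting is not given in the sources used here, so reads of overlapping genes could have been shared.

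Promoter sequences were matched for 4 of the 9 genes, all of them TNF receptors. Cd226 was left out of this search. The 250 bases before the start are printed for every matched gene, that is, Tnfrsf9 (2 annotated starts), Cd27, and the neighbours Tnfrsf4 and Tnfrsf18. The windows end at the starts of single transcripts, and those of Tnfrsf4, Cd27 and the second Tnfrsf9 start therefore overlap the gene spans given above. Capitals mark matches to motifs longer than 5 letters.
Tnfrsf9, start 1, chr4:150919905-150920154, plus strand: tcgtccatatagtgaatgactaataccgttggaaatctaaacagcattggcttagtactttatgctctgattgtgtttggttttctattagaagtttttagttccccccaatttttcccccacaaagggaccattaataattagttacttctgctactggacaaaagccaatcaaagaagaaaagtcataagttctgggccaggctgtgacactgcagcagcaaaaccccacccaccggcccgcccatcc
Tnfrsf9, start 2, chr4:150927749-150927998, plus strand: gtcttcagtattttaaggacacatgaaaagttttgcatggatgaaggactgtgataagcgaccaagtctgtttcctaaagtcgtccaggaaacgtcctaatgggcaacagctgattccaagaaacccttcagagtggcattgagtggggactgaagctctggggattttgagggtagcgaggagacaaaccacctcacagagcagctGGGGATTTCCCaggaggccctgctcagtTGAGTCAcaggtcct
Tnfrsf4, chr4:156013445-156013694, plus strand: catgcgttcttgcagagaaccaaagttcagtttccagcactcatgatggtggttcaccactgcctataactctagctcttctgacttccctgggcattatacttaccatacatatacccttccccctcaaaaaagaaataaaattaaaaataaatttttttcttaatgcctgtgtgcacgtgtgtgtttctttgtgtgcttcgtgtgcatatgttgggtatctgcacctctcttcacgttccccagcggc
Tnfrsf18, chr4:156026072-156026321, plus strand: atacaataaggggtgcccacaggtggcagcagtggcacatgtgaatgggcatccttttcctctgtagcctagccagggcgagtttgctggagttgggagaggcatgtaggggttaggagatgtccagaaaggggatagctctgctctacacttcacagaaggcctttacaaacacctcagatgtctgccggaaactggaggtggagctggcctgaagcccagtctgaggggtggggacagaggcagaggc
Cd27, chr6:125237028-125237277, minus strand: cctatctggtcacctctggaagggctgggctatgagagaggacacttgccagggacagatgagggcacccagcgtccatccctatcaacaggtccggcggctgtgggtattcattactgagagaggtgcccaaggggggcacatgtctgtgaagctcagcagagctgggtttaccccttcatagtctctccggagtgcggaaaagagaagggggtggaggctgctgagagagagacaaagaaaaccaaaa

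Both strands were searched for GTAAACA (bound by FOXO factors), TGANTCA (AP-1), GGAAA (the core bound by NFAT) and NF-κB motifs. The second Tnfrsf9 start was the only one of the 5 windows with a match of more than 5 letters. It held TGAGTCA, an AP-1 motif, from -15 to -9 relative to the start, and TGANTCA was present in 6.87% of the 27025 promoters of the table. The same window matched the degenerate NF-κB consensus in 2 overlapping frames, from -43 to -34 and from -42 to -33, and 7.01% of promoters held that consensus, which was added to the search after the sequence was seen. A stricter NF-κB form, present in 0.337% of promoters, and GTAAACA, present in 3.09%, had no match in the 5 windows. GGAAA, which 55.6% of promoters held, was found 1 to 3 times in each window, and 1 of the 3 in the window of the second Tnfrsf9 start lies inside the NF-κB match.

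The libraries were checked against cell type markers before the results were read. Of 8 listed CD8 T cell markers, 5 had a row, among them Cd8a, Cd8b1 and Cd3e, and their summed level was 3189 to 3482 FPKM in naïve, 637 to 685 FPKM in TCR and 811 to 953 FPKM in PI3Kdi libraries. The part of this in the results was not tested. In the first table the summed CD4 T cell markers were at most 1.48 FPKM and dendritic cell markers at most 0.64 FPKM, and none of the 5 macrophage markers had a row in either table. Of 4 NK cell markers, Eomes, which CD8 T cells also express, had a row in the first table, at 12.4 to 23.8 FPKM in naïve and TCR libraries and 4.03 to 8.24 FPKM with PI3Kdi. B cell markers summed to 20.9 to 26.3 FPKM in naïve libraries, mostly from Cd79b, and to 3.3 to 7.12 FPKM in activated libraries. The 3 TCR libraries were spread in these genes. Among the TCR + PI3Kdi libraries, replicate 3 had the lowest value for 5 of the 8 genes. TCR replicate 3 had the lowest of the 3 TCR values for 7 of the 8 genes, and its summed activation markers (Il2ra, Cd69, Cd44 and Gzmb), 3107 FPKM, were also the lowest, against 4779 FPKM and 3501 FPKM in TCR replicates 1 and 2.

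TCR activation changed the abundance of all 8 costimulatory mRNA. Cd28, Icos, Tnfrsf9, Tnfrsf4, Tnfrsf18 and Cd40lg rose, and Cd27 and Cd226 fell. Of all 11262 mRNA, 48.7% were called, 25% as higher and 23.7% as lower, so being called was common in this comparison. The sizes differed widely: Tnfrsf9 had the 82nd highest fold change of the table and Tnfrsf4 the 251st, while Cd40lg was 2271st.

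With PI3Kdi, the same genes split 3 ways. Cd28 and Icos were higher than in TCR activated cells, Tnfrsf9, Cd40lg and Cd226 were lower, and Tnfrsf4, Tnfrsf18 and Cd27 were not called. These 5 of 8 calls, 2 higher and 3 lower, stand beside 5.14% of all mRNA, 3.04% called as higher and 2.1% as lower. Without TCR replicate 3, 4 of the 8 genes were called, since Cd28 came under 2-fold. Against naïve cells, the cells activated with PI3Kdi differed in 8 of 8 genes, 5 higher and 3 lower, beside 45% of all mRNA, 23.6% higher and 21.3% lower. The 3 comparisons share groups and are not independent of each other. The fitted differences are plotted for all 8 genes.

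**Figure D1:**
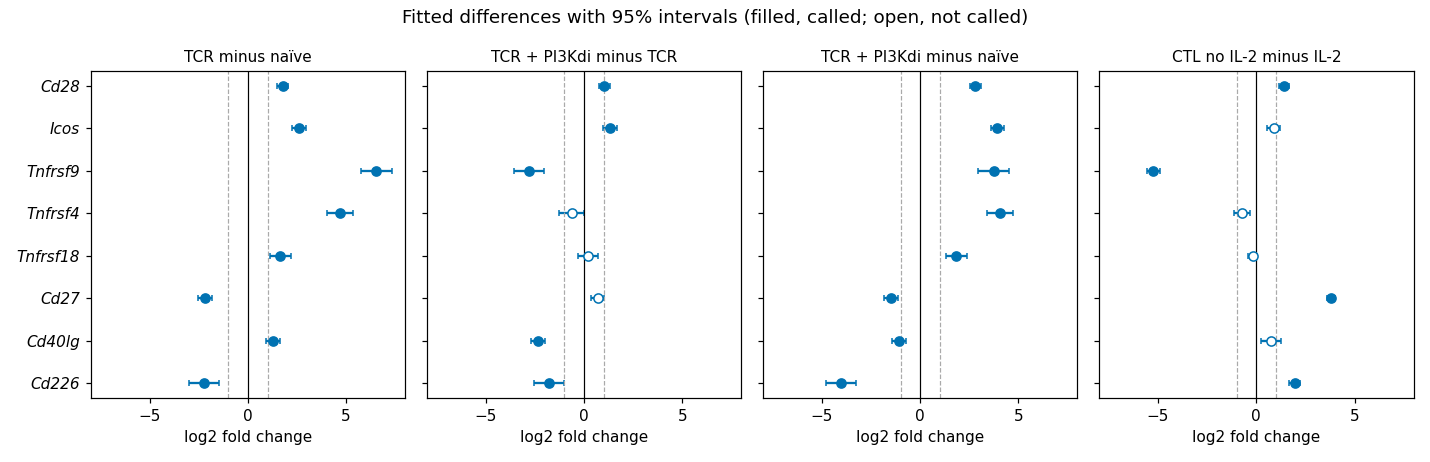
Log2 fold change (x axis) of each gene (y axis) in the 3 comparisons of the first table and in the CTL, with bars for the 95% interval and dashed lines at 2-fold. Filled points were called and open points were not. All 8 points are filled for TCR against naïve, 5 for PI3Kdi against TCR and 4 for IL-2 withdrawal.

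Cd28 and Icos were the 2 genes called higher with PI3Kdi than with TCR activation alone. Cd28, the receptor for CD80 and CD86, was at 38.7, 29.7 and 34.2 FPKM in the 3 naïve libraries, 132, 123 and 97.1 FPKM in the TCR libraries and 252, 242 and 219 FPKM with PI3Kdi. Each group lay wholly above the one before. The rise on activation was 1.77 on the log2 scale (SE 0.13, adjusted p = 1.6e-07), and with PI3Kdi the level rose by a further 1.02 (SE 0.13, adjusted p = 3.7e-04). This second step sits at the 2-fold limit, with an interval from 0.74 to 1.31 and a same-pool ratio of 1.91, 1.96 and 2.25. Leaving out TCR replicate 3 gave 0.89 (adjusted p = 7.7e-04) and leaving out TCR + PI3Kdi replicate 1 gave 0.98 (adjusted p = 0.0023), both under the fold limit.

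Icos, the inducible receptor for ICOSL, was at 11.7, 9.92 and 10.2 FPKM in naïve libraries, 73.5, 64.4 and 57.8 FPKM in TCR libraries and 131, 155 and 211 FPKM with PI3Kdi. Again no groups overlapped. The TCR response was 2.61 (SE 0.16, adjusted p = 3.4e-08) and the difference with PI3Kdi was 1.32 (SE 0.16, adjusted p = 2.6e-04). The pools differed in size here, with same-pool ratios of PI3Kdi to TCR of 1.78, 2.40 and 3.65. Cd28 mRNA exceeded Icos mRNA 3.22 ± 0.199-fold (SD, n = 3) in naïve libraries, 1.80 ± 0.119-fold in TCR libraries and 1.51 ± 0.446-fold with PI3Kdi.

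Among the TNF receptors, Tnfrsf9, which encodes 4-1BB, had the lowest level in naïve cells and the largest response. It was at 1.49, 1.55 and 1.47 FPKM in naïve libraries, 215, 174 and 89.5 FPKM in TCR libraries and 31.8, 25.6 and 11.95 FPKM with PI3Kdi. All PI3Kdi libraries lay below all TCR libraries and above all naïve libraries. The log2 fold change was 6.54 (SE 0.35, adjusted p = 1.4e-08) on activation and -2.80 (SE 0.35, adjusted p = 3.9e-04) for PI3Kdi against TCR, the 30th lowest of 11262 mRNA.

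The TCR libraries of Tnfrsf9 spread by a CV of 40.1% and the PI3Kdi libraries by 43.9%, but the ratio within a pool was nearly constant. PI3Kdi to TCR was 0.148, 0.147 and 0.134 in the 3 pools. The mean level moved from the 16.8th percentile of all mRNA in naïve cells to the 95.9th after activation, and to the 68.4th with PI3Kdi, where it was still 15.4 times the naïve mean (log2 fold change 3.74, SE 0.35, adjusted p = 1.9e-06).

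Tnfrsf4, the OX40 gene, was at 4.54, 3.75 and 5.44 FPKM in naïve libraries, 198, 110 and 76.5 FPKM in TCR libraries and 96.3, 80.2 and 57.6 FPKM with PI3Kdi. Activated libraries lay far above naïve ones, and the 2 activated groups overlapped. Activation raised Tnfrsf4 by 4.68 (SE 0.30, adjusted p = 5.3e-08). The difference with PI3Kdi was -0.63 (SE 0.30, adjusted p = 0.17), with an interval from -1.29 to 0.02 and a lower value in 3 of 3 pools. It rested on single libraries, since it was -0.26 (adjusted p = 0.45) without TCR replicate 1 and -0.95 (adjusted p = 0.036, still under 2-fold) without TCR replicate 3.

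Tnfrsf18, the GITR gene and the neighbour of Tnfrsf4, started at a higher level, with 37.6, 45.9 and 38.5 FPKM in naïve libraries. TCR libraries held 192, 126 and 85.9 FPKM and PI3Kdi libraries 162, 158 and 120 FPKM, so that these groups overlapped. Activation raised it by 1.65 (SE 0.23, adjusted p = 4.8e-05). PI3Kdi against TCR gave 0.19 (SE 0.23, adjusted p = 0.63), with an interval from -0.33 to 0.71, and the sign turned to -0.10 without TCR replicate 3. Tnfrsf4 was at 0.115 ± 0.0303 of the Tnfrsf18 level (SD, n = 3) in naïve libraries, at 0.931 ± 0.0886 after activation and at 0.526 ± 0.0603 with PI3Kdi.

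Cd27, a TNF receptor that naïve T cells already carry, went the other way. It was at 253, 249 and 329 FPKM in naïve libraries, 76.2, 56.7 and 50.4 FPKM in TCR libraries and 95.4, 109 and 88.5 FPKM with PI3Kdi. Naïve libraries lay above all activated ones, and PI3Kdi libraries above TCR libraries. Cd27 fell by 2.19 on the log2 scale on activation (SE 0.16, adjusted p = 1.5e-07). PI3Kdi against TCR gave 0.69 (SE 0.16, adjusted p = 0.012), which is under 2-fold and was not called. Without TCR + PI3Kdi replicate 2 it was 0.61 (adjusted p = 0.061). The summed B cell markers were also highest in the naïve libraries, as given above, against 249 FPKM or more for Cd27, and their part in the fall was not tested.

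The ligand gene Cd40lg was at 9.49, 10.5 and 10.2 FPKM in naïve libraries, 31.1, 24.5 and 19.2 FPKM in TCR libraries and 4.42, 4.23 and 5.61 FPKM with PI3Kdi. It was the gene whose rise became a fall: TCR libraries lay above the naïve ones and PI3Kdi libraries below them. The TCR response was 1.28 (SE 0.17, adjusted p = 2.8e-05) and PI3Kdi against TCR was -2.35 (SE 0.17, adjusted p = 1.1e-05), the 46th lowest of the table.

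Against naïve cells, Cd40lg with PI3Kdi was lower by a log2 fold change of -1.07 (SE 0.17, adjusted p = 1.2e-04). This value is close to the fold limit, and a pseudocount of 1, median scaling or leaving out TCR + PI3Kdi replicate 2 brought it to between -0.997 and -0.948, where it was no longer called. Of the CD4 T cell markers, Zbtb7b and Foxp3 had a row. Their sum was 0.10 to 0.37 FPKM in naïve, 0.67 to 0.75 FPKM in TCR and 1.36 to 1.48 FPKM in PI3Kdi libraries. The part of these markers in the Cd40lg levels was not tested.

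Cd226 (Entrez 225825, chr18:89176954-89272232), which encodes an adhesion and costimulatory receptor for CD155, was at 54.6, 55.1 and 41.6 FPKM in naïve libraries, 7.53, 10.9 and 14.1 FPKM in TCR libraries and 1.67, 2.97 and 5.23 FPKM with PI3Kdi. Every group was lower than the one before, with no overlap. Cd226 fell by 2.24 on the log2 scale on activation (SE 0.34, adjusted p = 8.3e-05) and PI3Kdi against TCR was -1.79 (SE 0.34, adjusted p = 0.0048). TCR replicate 3 was the highest of its group for this gene and the lowest for the 7 others.

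**Figure D2:**
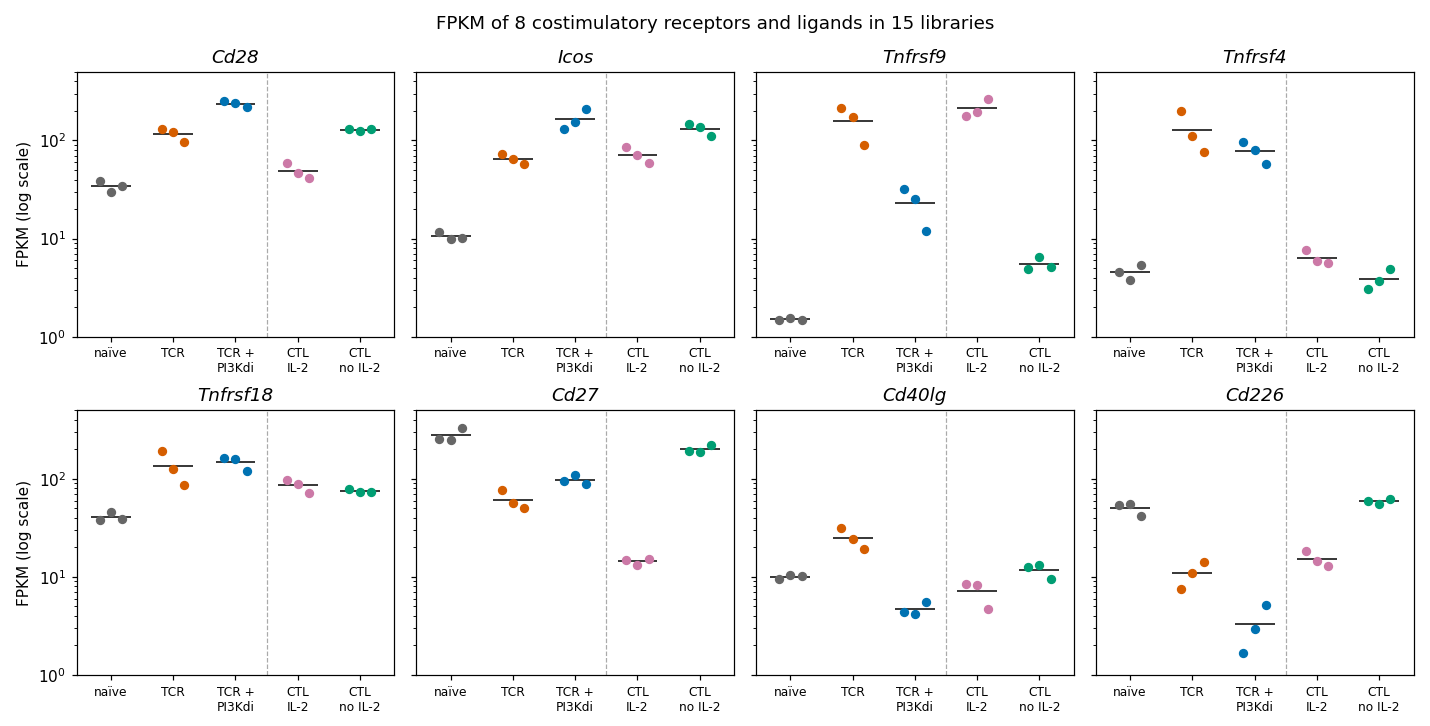
FPKM (y axis, log scale) of the 8 genes in each of the 15 libraries, by group (x axis), with a line at the group mean. The dashed vertical line separates the 2 tables, which were normalised apart. Tnfrsf9 runs from about 1.5 FPKM in naïve cells to over 170 FPKM in CTL IL-2, while Cd27 is highest in naïve cells and lowest in CTL IL-2.

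The part of the response to the TCR that was kept with PI3Kdi was computed for each pool as the difference from naïve with PI3Kdi in percent of the difference without it. Tnfrsf9 kept 13.4 ± 1.26% (SD, n = 3), with 14.2, 13.9 and 11.9% in the 3 pools. Tnfrsf4 kept 64.3 ± 14.6% and Tnfrsf18 131 ± 46.6%, so that TNF receptors which all rose on activation kept different parts of it. The Tnfrsf9 pools did not overlap with those of either.

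Cd28 reached 249 ± 37.9% and Icos 294 ± 117% of the TCR difference, with the lowest pool of either at 193%. The falls of Cd27 and Cd226 stood at 82.7 ± 8.78% and 121 ± 10.3%. Cd40lg was at -39.6 ± 14.4%, a negative value because it passed below the naïve level in all 3 pools.

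**Figure D3:**
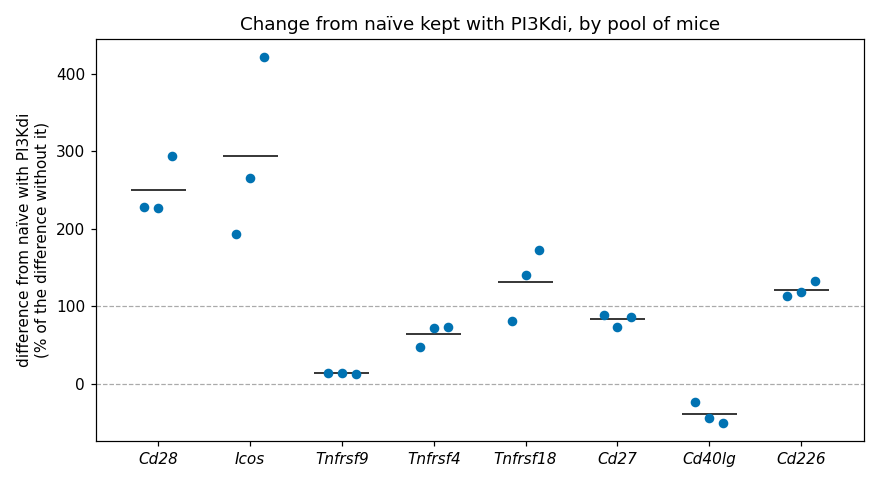
Difference from naïve with PI3Kdi in percent of the difference without it (y axis), for each of 3 pools of mice (points) and their mean (line), by gene (x axis). At 100% the responses are equal, at 0% the level is that of naïve cells. Tnfrsf9 lies near 13%, Cd28 and Icos lie above 190% in each pool, and Cd40lg lies below 0%.

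In CTL, IL-2 withdrawal raised some of the costimulatory genes and lowered one. Cd27, Cd226 and Cd28 were higher without IL-2 and Tnfrsf9 was lower, while Icos, Cd40lg, Tnfrsf4 and Tnfrsf18 were not called. These 4 of 8 calls, 3 higher and 1 lower, stand beside 28.2% of the 11211 mRNA, 14.3% higher and 13.9% lower. With no limit on the fold 7 of the 8 genes passed, beside 71.9% of all mRNA, and with one of 1.5-fold 7 passed, beside 50.5%. Cell type markers also moved in this table: Zbtb7b and Cd4, the CD4 T cell markers with a row, summed to 16.8 to 21.4 FPKM with IL-2 and 25.6 to 30.2 FPKM without, of which Cd4 made 0.233 FPKM and 1.40 FPKM on average. The B cell marker Cd79b went from 2.74 to 6.3 FPKM with IL-2 to 10.8 to 20.6 FPKM without, the dendritic cell marker Itgax from at most 0.39 FPKM to between 3.67 and 5.17 FPKM, and CD8 T cell markers from between 971 and 1042 FPKM to between 1876 and 2069 FPKM. Of the NK cell markers, Eomes was at 75.8 to 163 FPKM with IL-2 and 9.97 to 20.8 FPKM without, and Klrb1c at 1.2 to 1.88 FPKM and 2.17 to 3.41 FPKM. The part of these in the results was not tested, and in bulk RNA fewer cells of a type and less RNA per cell cannot be told apart.

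Tnfrsf9 was at 179, 196 and 265 FPKM in the 3 CTL IL-2 libraries and 4.96, 6.46 and 5.14 FPKM in the CTL no IL-2 libraries. The groups were apart by 38.7 times in their means. The log2 fold change of -5.24 (SE 0.15, adjusted p = 6.1e-08) was the 10th lowest of 11211 mRNA, and the mean went from the 97.1th percentile of all mRNA to the 31.0th.

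Cd27 moved the other way, from 14.9, 13.3 and 15.2 FPKM with IL-2 to 193, 188 and 222 FPKM without. Its log2 fold change was 3.78 (SE 0.09, adjusted p = 6.1e-08), the 42nd highest of the table. In single libraries, Tnfrsf9 mRNA was 12.03 to 17.5 times Cd27 mRNA with IL-2, and Cd27 was 29.0 to 43.1 times Tnfrsf9 without it. The naïve libraries of the other table had Cd27 at 160 to 224 times Tnfrsf9, and the TCR libraries had Tnfrsf9 at 1.78 to 3.07 times Cd27. With PI3Kdi, Cd27 was the higher again, at 3.00 to 7.41 times Tnfrsf9.

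Cd226 was at 18.6, 14.4 and 13.03 FPKM with IL-2 and 59.1, 55.3 and 61.6 FPKM without. The rise was 1.94 (SE 0.12, adjusted p = 1.2e-06). Cd28 was at 58.9, 46.7 and 41.5 FPKM with IL-2 and 132, 125 and 130 FPKM without, a rise of 1.41 (SE 0.12, adjusted p = 5.5e-06). For neither gene did the groups overlap.

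Icos was at 85.7, 70.5 and 58.5 FPKM with IL-2 and 147, 136 and 112 FPKM without. The groups did not overlap, but the difference of 0.89 (SE 0.14, adjusted p = 4.0e-04, interval 0.56 to 1.22) was under 2-fold. It crossed the limit without CTL IL-2 replicate 1, at 1.03, and without CTL no IL-2 replicate 3, at 1.00. In contrast to naïve libraries, where Cd28 mRNA was 3.00 to 3.36 times Icos mRNA, Icos was the higher in CTL IL-2, at 1.41 to 1.51 times Cd28.

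Cd40lg was at 8.55, 8.26 and 4.73 FPKM with IL-2 and 12.5, 13.2 and 9.54 FPKM without, with a difference of 0.74 (SE 0.22, adjusted p = 0.014, interval 0.24 to 1.24), or 0.46 without CTL IL-2 replicate 3. Tnfrsf4 was at 7.62, 5.96 and 5.61 FPKM with IL-2 and 3.04, 3.71 and 4.85 FPKM without, with a difference of -0.72 (SE 0.19, adjusted p = 0.0061, interval -1.14 to -0.30). Both were past the adjusted p and under 2-fold, so neither was called. The CD4 T cell markers given above, mostly Zbtb7b, were also higher without IL-2. Their part in the Cd40lg difference was not tested.

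Tnfrsf18 had the smallest difference of the 8 genes in CTL, with 97.2, 88.2 and 72.3 FPKM with IL-2 and 78.7, 73.3 and 72.6 FPKM without. The groups overlapped and the difference was -0.19 (SE 0.11, adjusted p = 0.14, interval -0.43 to 0.05). It was -0.09 (adjusted p = 0.39) without CTL IL-2 replicate 1 and -0.31 (adjusted p = 0.013) without CTL IL-2 replicate 3. Its neighbour Tnfrsf4 was at 0.0745 ± 0.00604 of the Tnfrsf18 level with IL-2 and 0.0520 ± 0.0142 without (SD, n = 3).

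The make-up of the costimulatory mRNA was computed in each library as each gene's share of the summed FPKM of the 8. The sum was 429 ± 36.3 FPKM in naïve, 702 ± 218 FPKM in TCR, 757 ± 33.0 FPKM in PI3Kdi, 463 ± 17.4 FPKM in CTL IL-2 and 616 ± 14.5 FPKM in CTL no IL-2 libraries (SD, n = 3). Cd27 made 64.3 ± 4.88% of it in naïve cells. In TCR activated cells no gene made more than 25.2% in any library, with Tnfrsf9 at 22.2 ± 3.60%, Tnfrsf18 at 18.9 ± 1.68%, Tnfrsf4 at 17.6 ± 3.27% and Cd28 at 17.3 ± 2.80% on average.

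With PI3Kdi the leading genes were Cd28, at 31.4 ± 1.09%, and Icos, at 22.1 ± 6.48%, while Tnfrsf9 made 3.02 ± 1.24%. In CTL IL-2 libraries Tnfrsf9 made 46.0 ± 8.93%. Without IL-2 it made 0.898 ± 0.155%, and Cd27, Icos and Cd28 led with 32.6 ± 2.88%, 21.4 ± 2.81% and 20.9 ± 0.122%.

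**Figure D4:**
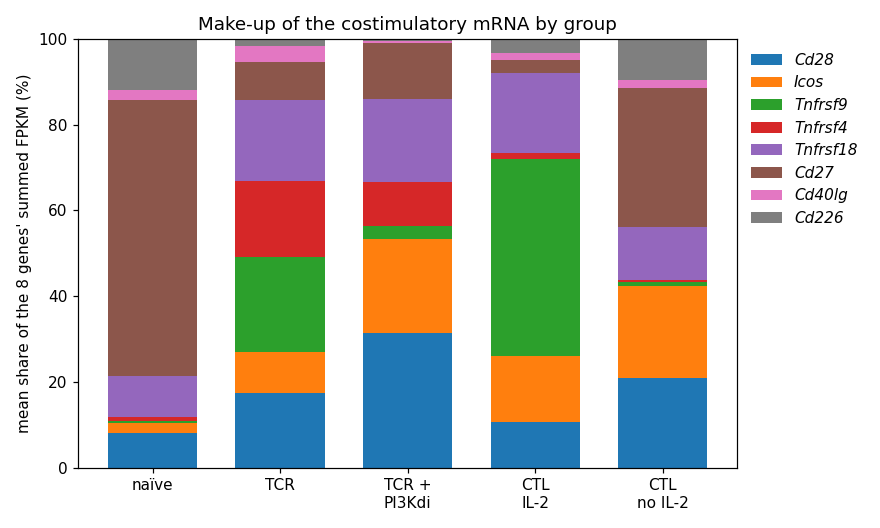
Mean share of each gene in the summed FPKM of the 8 (y axis, percent) for the 5 groups (x axis), 3 libraries each. Cd27 fills 64.3% of the naïve bar, Tnfrsf9 is the largest part of the TCR and CTL IL-2 bars, and Cd28 is the largest part of the PI3Kdi bar.

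Over the 9 libraries of the first table, Cd28 and Icos had a Pearson r of 0.99 for log2(FPKM + 0.1), and Tnfrsf4 and Tnfrsf18 one of 0.95. Cd28 and Cd226 had an r of -0.97. Cd40lg stood apart, with an r between -0.32 and 0.46 to each of the 7 others. These values describe 9 libraries that share 3 pools and 3 groups, and they mostly carry the differences between the groups.

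The mRNA whose pattern over these libraries was most like that of each gene, among 10072 with a mean of at least 1 FPKM, were Fam20a, Klf9 and B4galt4 for Cd28 and Gm14005, B4galt4 and Socs2 for Icos. They were Rbpj, Gpr25 and Perp for Tnfrsf9, Bri3bp, Lman1 and Phf10 for Tnfrsf4, and Adam15, Tmed3 and Wdr90 for Tnfrsf18. For Cd27 they were Slc44a2, Rnpepl1 and Maml2, for Cd40lg Sox5 and Degs1, and for Cd226 Grap, Abtb2 and Rassf1. Pearson r was 0.980 to 0.998 for these genes, and the lowest values were those for Cd40lg.

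Genes downstream of the receptors, and related receptors and ligands, were counted from lists written from knowledge of the pathways. Their counts stand beside the shares of all mRNA called in either direction, which were 48.7% for TCR against naïve, 5.14% for PI3Kdi against TCR, 45% for PI3Kdi against naïve and 28.2% in CTL. Of 24 genes listed for CD28 and ICOS signalling, 13 fell and 1 rose on TCR activation, with a median log2 fold change of -1.07 beside 0.01 for all mRNA. The list is broad and its genes, Pik3cg, Pik3r5 and Sh2d1a among them, are not specific to these receptors. Among the larger falls were those of Pik3cg, a PI3K catalytic subunit, at a log2 fold change of -3.06 (adjusted p = 5.0e-09), the adaptor Grap2 at -2.90 (adjusted p = 1.3e-08) and the PI3K regulatory subunit gene Pik3r1 at -2.14 (adjusted p = 3.2e-08). The medians of all mRNA lay between -0.01 and 0.01 in the 4 comparisons. The gene that rose, Gab2, was listed at 0 in all naïve libraries and averaged 0.223 FPKM in TCR libraries.

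With PI3Kdi against TCR, 2 of these 24 rose and 1 fell. Malt1, which encodes a protease of the NF-κB pathway, went from 46.5 ± 7.31 to 132 ± 24.0 FPKM (SD, n = 3; log2 fold change 1.49, adjusted p = 6.1e-05). Sh2d1a, the adaptor SAP of SLAM family receptors, went from 67.5 ± 18.9 to 10.5 ± 2.44 FPKM (-2.65, adjusted p = 4.1e-05). The median was 0.20 beside -0.01 for all mRNA. Against naïve cells the PI3Kdi group had 3 of 24 higher and 10 lower, with a median of -0.94 beside 0.00. In CTL, Sh2d1a was the one gene of the list called, at 80.4 ± 7.77 FPKM without IL-2 and 21.7 ± 4.45 FPKM with it (1.90, adjusted p = 2.4e-06), and the median was 0.18 beside 0.00.

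Of 20 TNF receptor adaptors and NF-κB genes, 6 rose and 3 fell on activation, beside 25% and 23.7% of all mRNA, with a median of -0.11. Bcl2l1, which encodes the survival protein BCL-XL, rose by 4.23 (adjusted p = 2.2e-09), the CD27-binding factor gene Siva1 by 2.65 (adjusted p = 4.1e-09), and the NF-κB subunit genes Nfkb2 and Nfkb1 by 1.86 (adjusted p = 4.6e-09) and 1.75 (adjusted p = 1.1e-07). With PI3Kdi against TCR, 5 of the 20 were called, each of them lower, with a median of -0.28. Bcl2l1 went from 123 ± 20.4 to 43.9 ± 13.1 FPKM (SD, n = 3; -1.51, adjusted p = 2.6e-04), Nfkb1 from 254 ± 21.3 to 95.8 ± 17.6 FPKM (-1.42, adjusted p = 3.1e-05), the adaptor Traf1 from 58.9 ± 2.60 to 23.9 ± 1.99 FPKM (-1.30, adjusted p = 9.3e-06) and the NF-κB subunit gene Rel from 18.6 ± 5.05 to 7.84 ± 0.293 FPKM (-1.20, adjusted p = 8.8e-04). Against naïve cells 3 of 20 were higher and 4 lower with PI3Kdi, with a median of -0.18.

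In CTL without IL-2, 7 of these 20 were higher and 1 was lower, with a median of 0.47. Bcl2l1 was the lower one, at 12.1 ± 1.75 FPKM against 90.4 ± 11.04 FPKM with IL-2 (-2.89, adjusted p = 2.2e-07). The feedback inhibitors of NF-κB Tnfaip3 (1.95, adjusted p = 5.5e-06) and Nfkbia (1.43, adjusted p = 4.9e-05) and the subunit gene Relb (1.26, adjusted p = 7.0e-05) were higher.

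Of 13 genes for costimulatory ligands and counter-receptors with a row, 5 rose and 2 fell on activation, with a median of 0.53. Tnfsf4, the ligand gene of OX40, went from 0.0333 ± 0.0289 to 3.25 ± 1.09 FPKM (SD, n = 3; adjusted p = 3.2e-06) and Cd80, a ligand gene of CD28, from 0.0300 ± 0.0265 to 3.32 ± 1.94 FPKM (adjusted p = 7.0e-06). Icosl, the ligand gene of ICOS, went from 5.41 ± 0.222 to 0.243 ± 0.0862 FPKM (adjusted p = 2.8e-08), and Tnfsf11, which encodes RANKL, from 0.233 ± 0.0551 to 6.37 ± 1.02 FPKM (adjusted p = 3.2e-09). The B cell markers fell in the same libraries as Icosl, and their part in that fall was not tested.

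With PI3Kdi against TCR, 1 ligand gene rose and 3 fell, with a median of -0.52. Tnfsf8, the CD30 ligand gene, rose by 1.11 (adjusted p = 0.016), and Cd80 (-2.14, adjusted p = 0.017), Tnfsf11 (-1.79, adjusted p = 1.4e-04) and Tnfsf14, the LIGHT gene (-1.65, adjusted p = 6.1e-05), fell. Against naïve cells 5 of 13 were higher and 2 lower with PI3Kdi, with a median of -0.03. In CTL without IL-2, Cd86 was higher (1.30, adjusted p = 3.6e-04) and Tnfsf11 (-3.14, adjusted p = 3.0e-07) and Pdcd1lg2, a PD-1 ligand gene (-1.92, adjusted p = 1.0e-05), were lower, with a median of -0.03.

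Inhibitory receptors were counted because several compete with a costimulatory receptor for its ligand. Of 7 with a row in the first table, 4 rose and 2 fell on activation, with a median of 4.75. Ctla4, whose product shares CD80 and CD86 with CD28, went from 0.307 ± 0.212 to 120 ± 85.0 FPKM (SD, n = 3; adjusted p = 6.8e-08) and Tigit, which shares CD155 with CD226, from 0.907 ± 0.348 to 27.2 ± 9.39 FPKM (adjusted p = 6.3e-08). Lag3 (9.25, adjusted p = 2.0e-10) and Pdcd1 (5.04, adjusted p = 1.5e-09) also rose.

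With PI3Kdi against TCR, Btla alone of the 7 was called, at 66.1 ± 2.44 FPKM against 30.4 ± 1.88 FPKM (SD, n = 3; 1.12, adjusted p = 1.8e-05), and the median was 0.19. Against naïve cells 5 of 7 were higher and 2 lower with PI3Kdi, with a median of 4.54. The 7 with a row in the CTL table include Havcr2 and not Btla. In CTL without IL-2, 4 of these 7 were higher and 2 lower, with a median of 1.01. Ctla4 (2.56, adjusted p = 9.0e-07) and Tigit (1.34, adjusted p = 4.7e-04) rose, as Cd28 and Cd226 did, and Havcr2, the TIM-3 gene (-2.54, adjusted p = 9.1e-07), and Pdcd1 (-1.47, adjusted p = 4.0e-05) fell.

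Of 16 other costimulatory receptors, 5 rose and 8 fell on activation, with a median of -0.91. Tnfrsf8, the CD30 gene, was listed at 0 in all naïve libraries and averaged 36.6 FPKM in TCR libraries. Cd7, an immunoglobulin family receptor of T cells, fell by 8.30 on the log2 scale (adjusted p = 5.8e-07), and Slamf7, a SLAM family receptor (5.19, adjusted p = 2.1e-09), and Klrk1, which encodes NKG2D (5.07, adjusted p = 3.0e-08), rose. With PI3Kdi against TCR, 2 of 16 were called, both lower, Crtam (-1.06, adjusted p = 0.0061) and Slamf7 (-1.05, adjusted p = 0.0079), with a median of 0.10. Against naïve cells 4 of 16 were higher and 7 lower with PI3Kdi, with a median of -0.47.

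In CTL without IL-2, 7 of 17 other costimulatory receptors were higher and 3 lower, with a median of 0.87. Cd7 was at 30.2 ± 9.71 FPKM without IL-2 and 0.217 ± 0.0321 FPKM with it (SD, n = 3; 6.54, adjusted p = 7.4e-08), and Slamf6 at 50.2 ± 0.282 FPKM and 4.35 ± 2.07 FPKM (3.63, adjusted p = 6.6e-06). Tnfrsf25, which encodes the TNF receptor DR3, was also higher (2.67, adjusted p = 5.8e-05), and Tnfrsf8 was lower (-2.74, adjusted p = 2.5e-06), the direction of Tnfrsf9.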

How the data were processed

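The RNA sequencing comprised 15 libraries of mouse P14 T cells, 9 in the table of naïve and activated CD8+ cells and 6 in the CTL table. The authors deposited both tables as FPKM rounded to 2 decimals. Per their methods and the submitters' processing notes, the authors aligned reads to mm10 with STAR 2.5.2b, counted them with Subread 1.5.1, removed low mRNA, and divided TMM-scaled values by exon length in edgeR. These steps were assumed to hold for the CTL table. Blank cells, 46 to 252 in each library of the first table, were read as 0. A filter on low counts before deposit leaves out mRNA without a row, and TMM scaling assumes that most mRNA keep their level. Groups came from titles. The treatment labels of CTL IL-2 replicates 2 and 3 name other interleukins.

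The 9 genes and the gene lists were chosen with earlier results of these data known. Log2(FPKM + 0.1) was fitted with limma 3.58.1 in R 4.3.3 with an intensity trend, 1 fit for each table, with Benjamini-Hochberg adjustment across every mRNA in it. A call needed an adjusted p under 0.05 and a fold change above 2 or below 0.5. The scripts were tested on simulated data. All 9 genes were to be named, with at most 4 called genes for each list and comparison, those of largest change, and the 3 most alike mRNA for each gene. Some genes that this rule picks are not reported here. A planned search of protein sequences was not run. Summaries used pandas 2.3.3 and scipy 1.17.1 in Python 3.11.15, and plots matplotlib 3.10.9.

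Each pool was divided between the 3 groups of the first table. Libraries with the same number were thus taken as pairs for the ratios of PI3Kdi to TCR. The fits behind the SE, intervals and p-values did not use these pairs, except in the alternative with a replicate block. Deviations of same-number libraries from the group means correlated with r of 0.20 to 0.51 across 10072 mRNA, beside -0.45 to 0.19 for libraries with different numbers. In CTL the values were 0.12 to 0.26, beside -0.20 to 0.09. For TCR against naïve they were -0.18 to 0.23, beside -0.31 to 0.38. For PI3Kdi against naïve they were -0.02 to 0.03, beside -0.03 to 0.04. The pairing with naïve libraries, used for the percentages kept, thus rests on the stated division of pools and is not visible in these values. Alternatives were another pseudocount, a filter at a mean of 1 FPKM, median scaling, the replicate block, no trend, other fold limits, only the groups compared, and leaving out each library. Read totals were not used here, and the spacing of low FPKM values gave unstable depths, from 1.45 to 13.5 M reads, so the depth is treated as unknown and no detection limit is given.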

Additional observations from a re-analysis of the deposited data

How the results depend on the processing

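Over 472 alternative values of 32 gene effects, 455 kept their direction and call, 10 gained a call, 6 lost one and 1 turned its sign. The last was Tnfrsf18 for PI3Kdi against TCR, at -0.10 without TCR replicate 3 (range -0.10 to 0.48 when single libraries were left out). Values with other fold limits came from the main fit, so for them only a gained call was possible. The number of the 8 genes called was moved by more than 1.5 times in CTL only, from 4 to 7, with no fold limit or one of 1.5-fold. With the replicate block the calls were 8 of 8 for TCR against naïve, 5 for PI3Kdi against TCR, 8 for PI3Kdi against naïve and 4 in CTL, and no call of these genes changed. Median scaling moved the median of all mRNA for TCR against naïve to 0.12 and gave 4 genes for PI3Kdi against TCR, where Cd28 came to 0.998 on the log2 scale, just under the limit, and 7 for PI3Kdi against naïve, where Cd40lg came to -0.98. Leaving out single libraries gave 4 to 5 genes for PI3Kdi against TCR, 7 to 8 for PI3Kdi against naïve and 4 to 5 in CTL. Over all mRNA, the 579 calls for PI3Kdi against TCR became 311 with a pseudocount of 1, 1975 with no fold limit and 1120 with one of 1.5-fold. With no fold limit, calls went from 5490 to 9096 for TCR against naïve, from 5063 to 8906 for PI3Kdi against naïve and from 3166 to 8056 in CTL, where a limit of 1.5-fold gave 5657. The 3 libraries a group and the unknown depth limit the precision.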
